A study of Mus musculus with 6 samples.

Results

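Zfp genes are the mouse genes named for zinc finger proteins, and those with a symbol of Zfp followed only by digits were examined here in the livers of aged Sirt7 KO mice. GENCODE M21 (GRCm38) holds 364 protein-coding genes with such a symbol. The 119 members, 32.7% of them, were chosen by measured values, namely an average of at least 50 reads per gene over the 6 livers, so their abundance is given as a description and carries no test. The choice averaged unscaled reads over both genotypes and did not use their difference. A gene could still reach the minimum through the livers of a single genotype. Zfp960, Zfp949 and Zfp750 did so through WT livers, with under 50 reads in each KO liver. How many members did so in either genotype was not counted. Livers of 3 WT mice and 3 Sirt7 KO mice were compared. All mice were male, 24 months old and fasted for 16 h before the liver was taken, so no group was young, female or fed. The study kept these KO mice on a C57BL/6J background. The labels number the mice of each genotype as biological replicates 1 to 3, and those of the same number are different animals.

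Most proteins of this family carry C2H2 zinc fingers, short modules in which a pair of cysteines and a pair of histidines hold a zinc ion so that the finger can contact DNA or RNA. Many also carry a KRAB domain near the start of the protein, which binds the corepressor TRIM28 and through it brings in histone methylation that silences genes and retroelements. The name was given for the finger and not for the function, so the members also include RNA decay factors, ribosome factors and ubiquitin ligases. SIRT7, the deacetylase missing in the KO mice, is a nuclear enzyme that removes acyl groups from histones and other proteins.

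The following stretches show what the members are made of, for members to which the results return. They were cut from the GENCODE M21 transcripts of GRCm38 and are written 5′ to 3′ along the gene. In the first group, capitals mark the codons of the cysteines and histidines that hold the zinc. The Zfp467 stretch lies in exon 5 of 5 (chr6:48439171-48439233, minus strand) and the Zfp524 stretch in exon 3 of 3 (chr7:5017805-5017867, plus strand). Those of Zfp91 (chr19:12774914-12776045, minus strand) and Zfp706 (chr15:37001896-37003700, minus strand) are each split by an intron. The Zfp36 stretch is a finger of the CCCH type, with 3 cysteines and 1 histidine, in exon 2 of 2 (chr7:28378158-28378217, minus strand).
Zfp467: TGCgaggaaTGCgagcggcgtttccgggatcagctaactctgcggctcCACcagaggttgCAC
Zfp91: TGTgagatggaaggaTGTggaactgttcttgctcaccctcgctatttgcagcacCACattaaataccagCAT
Zfp524: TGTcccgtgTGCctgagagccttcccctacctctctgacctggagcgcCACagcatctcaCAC
Zfp706: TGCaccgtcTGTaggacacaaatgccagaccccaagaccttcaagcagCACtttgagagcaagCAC
Zfp36: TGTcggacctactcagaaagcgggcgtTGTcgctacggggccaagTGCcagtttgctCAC

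The KRAB stretches below code for the conserved motif of the KRAB-A box, and capitals mark the codons of the residues that define the motif. The Zfp809 stretch lies in exon 2 of 6 (chr9:22235068-22235115, plus strand), the Zfp960 stretch in exon 2 of 4 (chr17:17085569-17085616, plus strand) and the Zfp97 stretch in exon 2 of 4 (chr17:17142784-17142831, plus strand). Zfp97, a neighbor of Zfp960 on chromosome 17, is not a member, with a mean of 18.02 reads. It is shown because 48 of its 48 bases are the same as in Zfp960, and 89.2% of the 31-base words of Zfp960 also occur in another gene, most often in Zfp97.
Zfp809: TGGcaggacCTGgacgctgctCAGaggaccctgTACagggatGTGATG
Zfp960: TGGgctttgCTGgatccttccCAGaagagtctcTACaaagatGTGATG
Zfp97: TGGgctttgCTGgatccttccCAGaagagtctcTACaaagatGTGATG

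The libraries held 9994860 to 13424776 reads on transcripts. Members took 0.189, 0.154 and 0.169% of the reads on genes in WT livers and 0.153, 0.148 and 0.152% in KO livers. Before scaling, this share was thus lower in every KO liver than in every WT liver. WT liver 1 had the highest TMM scaling factor, 1.1225, against 0.950 to 1.01 in the other livers. Sirt7 itself was measured at 55.2, 45.5 and 47.3 CPM after TMM scaling (scaled CPM, the reads of a gene as a share of the library) in WT livers and at 28.6, 41.8 and 40.8 in Sirt7 KO livers. Its log2 fold change was -0.41 (SE 0.18, unadjusted p = 0.0458, adjusted p = 0.423 by edgeR's quasi-likelihood test). The 1727-base transcript of Sirt7 took 65.8, 76.0 and 63.9% of the Sirt7 reads in WT livers and 39.8, 34.3 and 18.3% in KO livers, so its share was lower in every KO liver. The shares of the 427-base and 1218-base transcripts were higher in every KO liver, at means of 17.3 and 34.1% against 0.45 and 5.60% in WT livers. In TPM, which is divided by transcript length, Sirt7 was at 34.4, 28.3 and 27.3 in WT livers and at 34.7, 49.9 and 68.0 in KO livers, the opposite order to that of its reads. Hepatocyte markers summed to 58488 to 60431 scaled CPM in WT livers and to 58275 to 69261 in KO livers. The summed ranges of the Kupffer cell, sinusoidal endothelium, stellate cell, cholangiocyte, lymphocyte and erythroid markers overlapped between the genotypes as well. Single markers could differ from these sums. The hepatocyte markers Apoa1 and Fga and the cholangiocyte marker Krt19 were higher in every KO liver, as were 8.74% of all genes tested. No listed marker was lower in every KO liver. The log2 fold change of Fga was 0.87 (SE 0.25, adjusted p = 0.237 by edgeR).

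The level of the members in liver was low to moderate. Mean reads per liver ran from 50.3 to 1218, with a median of 100.1, and 59 members lay between 50 and 100 reads. Just inside the minimum were Zfp654 (50.3 reads), Zfp39 (50.8) and Zfp704 (51.4), and just outside it were Zfp937 (48.3), Zfp319 (48.3) and Zfp324 (48.0). Of the 245 Zfp genes below the minimum, 13 had no read in any liver and 32 averaged under 1 read. In TPM, a level that is divided by transcript length, the members ran from 0.327 to 129 with a median of 3.82, and 20 of them exceeded 10 TPM.

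Zfp706, a protein of 76 residues with 1 finger that is known to repress Klf4 in embryonic stem cells, was the most abundant member. Its level was 145, 145 and 124 TPM in WT livers and 119, 118 and 126 TPM in KO livers. The next in order were Zfp637 (mean 31.3 TPM), Zfp787 (30.4), Zfp771 (29.9) and Zfp444 (28.01). The spread between livers was wider than the steps between these 4 genes, for example 49.1, 27.98 and 20.3 TPM for Zfp771 in WT livers. Zfp809 (23.9 TPM), Zfp207 (23.4), Zfp36 (19.3), Zfp707 (18.9) and Zfp524 (15.7) completed the 10 highest. Zfp809 is a KRAB protein that silences retroviruses, Zfp207 binds spindle microtubules and Zfp36, or tristetraprolin, directs mRNAs with AU-rich elements to decay.

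**Figure D1:**
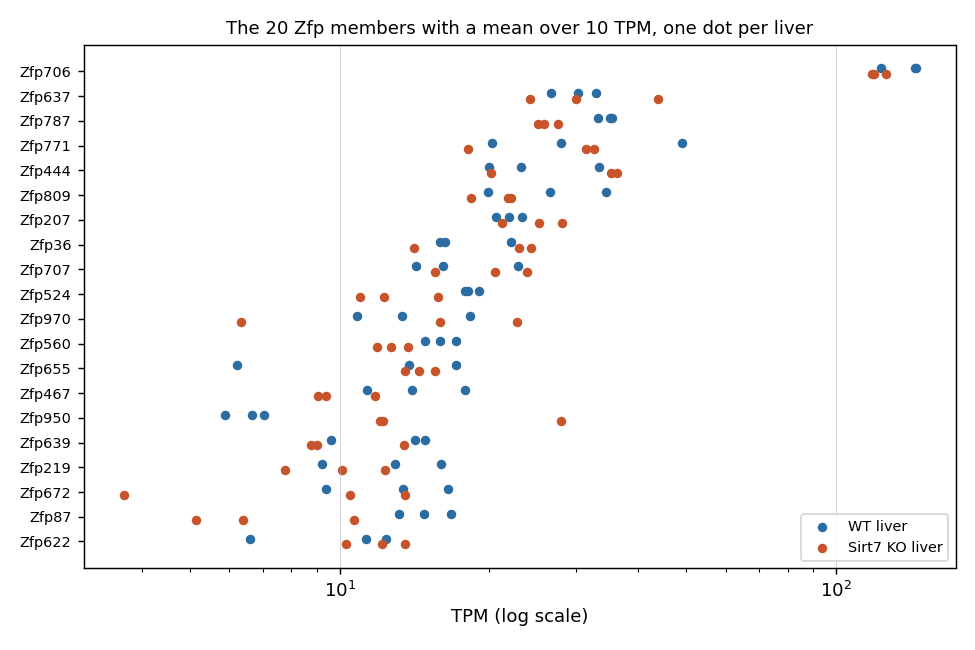
TPM (x axis, log scale) of the 20 members with a mean over 10 TPM, in order of the mean, with 1 dot for each WT liver (blue) and each Sirt7 KO liver (orange). Zfp706 stands apart at 118 to 145 TPM, and the dots of neighboring genes overlap from Zfp637 down.

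No member passed the test between the genotypes after adjustment for the 12524 genes tested. All 119 members were tested, and 0 had an adjusted p-value under 0.05 by edgeR's quasi-likelihood test, where 1 gene of 12524 (0.00798%) had one. At an unadjusted p under 0.05, 4 members (3.36%) were lower in Sirt7 KO livers and 0 were higher. Over all genes tested, 11.3% had an unadjusted p under 0.05, with 4.78% lower and 6.54% higher in KO livers, so the share among the members was under the background. These are RNA levels of whole liver, in which fewer cells of a type and less RNA per cell cannot be told apart. Scaling to total counts alone moved the median of all genes to -0.114, and it then gave 10 members lower and 0 higher at an unadjusted p under 0.05, with 993 genes lower and 520 higher over all genes in place of 599 and 819. DESeq2 on the reads also gave 0 members with an adjusted p under 0.05, and DESeq2 with offsets for the average transcript length gave 1, Zfp950, which was higher (adjusted p = 0.0151). Over all genes, both DESeq2 fits called many more than the 1 gene of edgeR, with the counts in the last section.

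Fold changes of the members were small. Their log2 fold changes, Sirt7 KO minus WT, ran from -1.03 (Zfp960) to 0.48 (Zfp408), with a median of -0.08 against -0.01 for all genes tested. Values below 0 were found in 71 members (59.7%) and above 0 in 48. Below 0 were also 50.7% of all genes tested. The tested genes with at least 50 reads had 49.7% below 0 and a median of 0.002. Members that reached the read minimum through WT livers alone, such as Zfp960, are in these counts. No test of the difference was made. The SD over the members was 0.27, while it was 0.44 over the 8908 tested genes with at least 50 reads. For 94 of the 119 members the 95% confidence interval lay within a 2-fold change in either direction, and the half-width of the interval had a median of 0.57 (0.29 to 1.05). The median coefficient of variation between livers of a genotype was 16.8% in WT and 19.2% in KO for the members, slightly over the 14.3% and 16.2% of the genes with at least 50 reads.

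**Figure D2:**
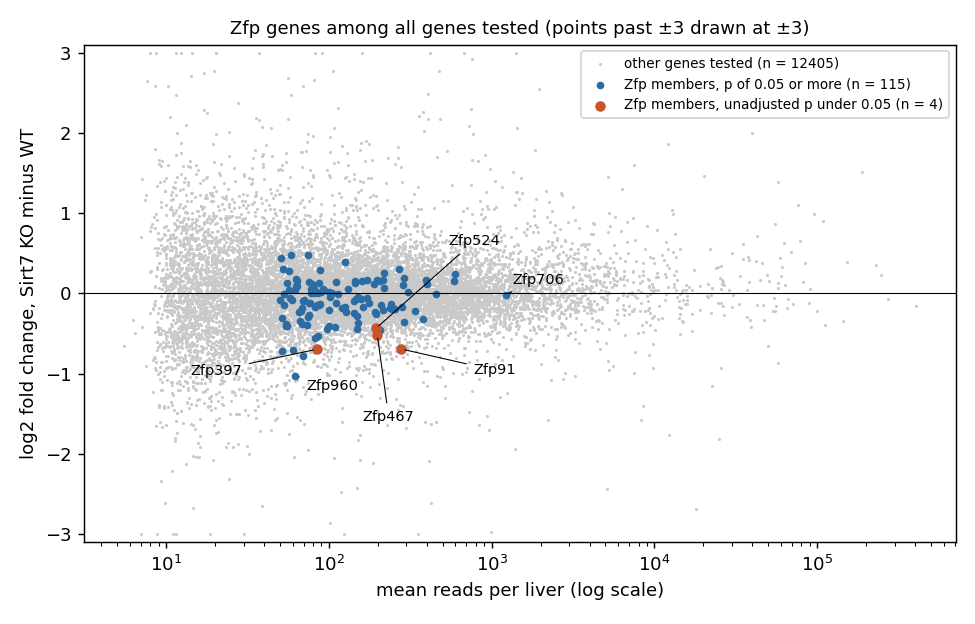
Log2 fold change, Sirt7 KO minus WT (y axis), against mean reads per liver (x axis, log scale) for the 119 members (blue, or orange for the 4 with an unadjusted p under 0.05) and for the other genes tested (gray). The members lie between -1.03 and 0.48, inside the cloud of the other genes.

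Zfp467, which is known to turn marrow stromal cells toward adipocytes and away from osteoblasts, had the smallest p-value (chr6:48427697-48445825). It was measured at 18.4, 21.8 and 21.5 scaled CPM in WT livers and at 14.7, 14.1 and 14.4 in KO livers. Every KO liver was thus below every WT liver, and the log2 fold change was -0.51 (SE 0.16, unadjusted p = 0.00942, adjusted p = 0.258 by edgeR). The TPM of Zfp467, at 13.99, 11.3 and 17.9 in WT livers and 9.05, 9.39 and 11.8 in KO livers, overlapped. Over the 16 other fits its log2 fold change stayed between -0.61 and -0.46, and its unadjusted p was under 0.05 in 14 of them, all but those with length offsets.

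Zfp397 (chr18:23954692-23964673) was at 9.40, 7.62 and 10.1 scaled CPM in WT livers and 5.59, 5.30 and 5.88 in KO livers. The genotypes did not overlap, and the log2 fold change was -0.70 (SE 0.22, unadjusted p = 0.0117, adjusted p = 0.281 by edgeR). With the average transcript length of each liver as an offset the value was -0.26, and the TPM of Zfp397, at 3.89, 1.197 and 1.70 in WT livers and 0.909, 1.51 and 3.05 in KO livers, overlapped. Its unadjusted p was under 0.05 in the other 14 of 16 fits.

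Zfp91 (chr19:12763660-12796126), a ubiquitin ligase of the noncanonical NF-κB pathway, was at 30.1, 34.6 and 26.2 scaled CPM in WT livers and at 27.2, 16.3 and 12.6 in KO livers. KO liver 1 lay within the WT range and the other KO livers lay below it. The log2 fold change was -0.69 (SE 0.27, unadjusted p = 0.0293, adjusted p = 0.369 by edgeR). Without KO liver 1 it was -1.06 with an adjusted p of 0.0394, and without KO liver 3 it was -0.47 (adjusted p = 0.691). The unadjusted p was under 0.05 in 2 of the 6 fits that left out a liver, those without KO liver 1 and without WT liver 3. Transcripts that run from Zfp91 into its neighbor Cntf are known, and 9.89% of the 31-base words of Zfp91 occur in another gene, most often in Cntf, which held 1.9 to 15.2 reads per liver against 131 to 381 for Zfp91.

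Zfp524 (chr7:5014415-5018488), a protein that binds telomeric repeats, was at 19.4, 20.3 and 19.5 scaled CPM in WT livers and 14.5, 12.1 and 17.2 in KO livers. No KO liver reached the WT range, and the log2 fold change was -0.43 (SE 0.18, unadjusted p = 0.0363, adjusted p = 0.391 by edgeR). Of its words 48.8% occur in another gene, most often in Gm44973, which held up to 13.6 reads per liver, so the split of reads between this pair is uncertain. The unadjusted p was under 0.05 in 7 of the 16 other fits and in 1 of the 6 that left out a liver.

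**Figure D3:**
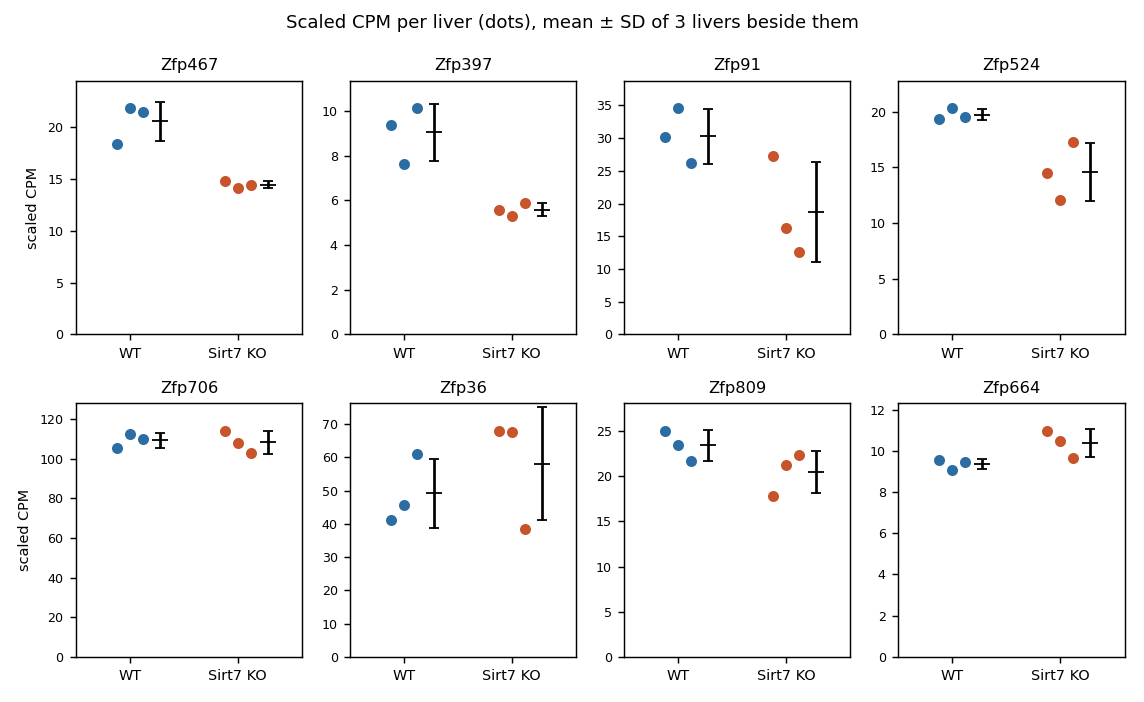
Scaled CPM (y axes, from 0) of 8 members in each WT liver (blue) and Sirt7 KO liver (orange), with the mean ± SD of 3 livers in black. Zfp467, Zfp397 and Zfp524 do not overlap between the genotypes, Zfp91 overlaps through KO liver 1 and Zfp809 through KO liver 3, Zfp706 and Zfp36 overlap, and Zfp664 does not.

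In scaled CPM, every KO liver was below every WT liver in 8 members (6.72%), against 8.09% of all genes tested. These were Zfp467, Zfp397, Zfp524, Zfp644, Zfp335, Zfp787, Zfp949 and Zfp560, of which Zfp949 reached the read minimum only through its WT livers. In 2 members (1.68%), Zfp664 and Zfp386, every KO liver was above every WT liver, against 8.74% of all genes. Zfp949, Zfp560, Zfp664 and Zfp386 were chosen for mention after their values were seen. Zfp386 was at 6.01, 4.36 and 6.51 scaled CPM in WT livers and 9.25, 7.31 and 6.94 in KO livers (log2 fold change 0.47, SE 0.25, adjusted p = 0.539 by edgeR). Zfp664 differed little, with 9.57, 9.07 and 9.47 against 10.99, 10.5 and 9.63 scaled CPM. With 3 livers a genotype, the exact two-sided permutation test gives at least p = 0.1, which each of these 10 members had.

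Zfp960, the member with the largest negative value, was set by 1 liver. Its scaled CPM was 4.996, 3.54 and 12.6 in WT livers and 3.30, 4.03 and 3.08 in KO livers, so WT liver 3 alone stood above the KO range by a wide margin (log2 fold change -1.03, SE 0.46, adjusted p = 0.450 by edgeR). Without WT liver 3 the log2 fold change was -0.29 (SE 0.36). Zfp960, Zfp408, Zfp97, Zfp950, Zfp236, Zfp87 and Zfp110 were also named after their values were seen. Its near copy Zfp97 held 36.8, 0 and 45.7 reads in WT livers and 25.6, 0 and 0 in KO livers. As the sequences above show, reads of these genes can be shared between them, and both values are uncertain.

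Among the members that act on RNA and ribosomes none passed the adjusted test. Of 10 genes listed, 8 were members, with a median log2 fold change of 0.09. An unadjusted p under 0.05 was found in 0 of these 8 and in 11.3% of all genes tested. Zfp598, the ubiquitin ligase that marks collided ribosomes, was at 33.8, 27.5 and 25.3 scaled CPM in WT livers and 18.8, 25.5 and 23.1 in KO livers (log2 fold change -0.36, SE 0.18, adjusted p = 0.494 by edgeR). Zfp622, a factor of the large ribosomal subunit, had the opposite sign at 26.3, 14.4 and 24.6 against 20.4, 32.3 and 28.03 scaled CPM, and the genotypes overlapped. Zfp36 was at 41.1, 45.5 and 60.9 scaled CPM in WT livers and 68.0, 67.7 and 38.4 in KO livers. KO liver 3 was the lowest of all 6 for Zfp36, and the log2 fold change was 0.24 (SE 0.24, adjusted p = 0.765 by edgeR). Zfp106, an RNA-binding protein needed by motor neurons, had a log2 fold change of -0.21 (SE 0.16).

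Among 9 listed activators and promoter factors 8 were members. Zfp91 was the 1 with an unadjusted p under 0.05, where 11.3% of all genes had one, and 6 of the 8 values were below 0 (median -0.15), as were 50.7% of all genes tested. Zfp335, which works with histone H3K4 methyltransferases, was at 12.96, 9.71 and 10.7 scaled CPM in WT livers and at 6.78, 9.22 and 8.96 in KO livers. These did not overlap, but 22.9% of its words occur in another gene, most often in Pcif1. The log2 fold change was -0.42 (SE 0.22, adjusted p = 0.531 by edgeR). Zfp410, the activator of Chd4, was at 15.5, 16.9 and 21.1 scaled CPM against 23.5, 16.95 and 23.1, a log2 fold change of 0.25 (SE 0.19), while Chd4 itself had 0.04 (SE 0.17). Zfp148, which binds GC-rich promoters, had -0.23 (SE 0.22).

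Of 10 listed chromatin corepressors only 3 were members. Zfp644, a partner of the H3K9 methyltransferases G9a and GLP, was at 10.1, 7.17 and 8.51 scaled CPM in WT livers and 6.32, 4.56 and 6.65 in KO livers. The log2 fold change was -0.55 (SE 0.25, unadjusted p = 0.0540, adjusted p = 0.451 by edgeR). Zfp592 and Zfp687, which bind chromatin together with Zmynd8, were near 0 at 0.11 (SE 0.16) and 0.05 (SE 0.26).

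Of 8 KRAB proteins known to guard imprints or to silence retroelements, 2 were members. Zfp445, a keeper of genomic imprints, was at 24.8, 31.2 and 54.1 scaled CPM in WT livers and 23.3, 33.4 and 32.0 in KO livers (log2 fold change -0.32, SE 0.28, adjusted p = 0.725 by edgeR). WT liver 3 alone was above the KO range, and without it the log2 fold change was 0.08 (SE 0.22). Zfp809 was at 25.1, 23.5 and 21.7 against 17.9, 21.3 and 22.4 scaled CPM (log2 fold change -0.19, SE 0.16, adjusted p = 0.698 by edgeR). Zfp57, the other well-known imprint factor, averaged 1.00 read. Of 7 genes listed for metabolism and adipocytes 3 were members, namely Zfp467, Zfp638 (log2 fold change 0.13, SE 0.25), a cofactor of adipocyte differentiation, and Zfp692 (-0.08, SE 0.31), a target of AMPK.

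The partners of KRAB proteins were measured beside the members. Of 22 listed genes of the KRAB corepressor machinery 21 were tested. At an unadjusted p under 0.05, 3 were lower in KO livers and 0 were higher, and 0 had an adjusted p under 0.05 by edgeR, with a median log2 fold change of -0.12. Over all genes tested the shares at an unadjusted p under 0.05 were 4.78% lower and 6.54% higher. Trim28, the corepressor itself, was at 57.1, 41.8 and 35.1 scaled CPM in WT livers and 40.6, 38.7 and 40.8 in KO livers (-0.16, SE 0.19, adjusted p = 0.801 by edgeR). Trim24, a partner of Trim28, was at 12.7, 12.8 and 17.98 scaled CPM against 9.89, 9.22 and 7.32, with a log2 fold change of -0.72 (SE 0.22, adjusted p = 0.270 by edgeR). Morc2a, an ATPase of heterochromatin, was at -0.69 (SE 0.24, adjusted p = 0.325 by edgeR), and Chd3, a remodeler of the NuRD complex, at -0.50 (SE 0.19, adjusted p = 0.358 by edgeR). In other zinc finger families, of 17 Zbtb genes 0 were higher and 1 was lower at an unadjusted p under 0.05, and of 12 Zkscan and Zscan genes none was on either side.

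The proteins of the members differed in architecture. A KRAB-A motif was found in 172 of the 364 genes, and 40 of these (23.3%) were members, whereas 79 of the 192 genes without it (41.2%) were members, a description of the read minimum that chose them. Zfp445 is known as a KRAB protein but its translated sequence did not match the motif, so the motif misses some. Members with the motif had a median of 11 fingers, a transcript GC content of 42.7% and a level of 2.56 TPM, and members without it had 7 fingers, 50% and 4.55 TPM. The 119 proteins held 76 to 2698 residues, from Zfp706 to Zfp292, and 0 to 30 C2H2 fingers with a median of 9, the most in Zfp236. No C2H2 finger was matched in 4 members, Zfp36, Zfp330, Zfp750 and Zfp839.

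By architecture, the median log2 fold change was -0.11 in the 40 members with the KRAB-A motif and -0.07 in the 79 without it, and the 4 members with an unadjusted p under 0.05 had no such motif. By number of fingers, the median was 0.01 in the 24 members with 0 to 3, -0.08 in the 48 with 4 to 9 and -0.14 in the 47 with 10 or more. No test was made between these groups. Members with 10 or more fingers also had fewer reads, a median of 80.6 against 134.0 in those with 0 to 3.

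Zfp genes are known to lie in clusters made by local duplication. Members were found on 18 chromosomes, with 25 on chromosome 7 and 14 on chromosome 17. Runs of neighboring members within 200 kb held 31 members in 13 runs. The longest, of 5 members on chromosome 7 (Zfp688, Zfp553, Zfp629, Zfp768 and Zfp771), had log2 fold changes between -0.01 and 0.07. The median was -0.08 in runs and -0.08 outside them. In 21 members at least 10% of the 31-base words occur in another gene, and their median log2 fold change of -0.05 was close to the -0.08 of the other 98.

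Promoters from RefSeq (GRCm38.p6), from 250 bases before to 50 bases after a start, were given for 97 members with 121 starts. On either strand, the core site of ETS factors, CCGGAAG, was found in 20.7% of the members' promoters and in 17.6% of the 11889 promoters of all tested genes. ELK4, an ETS factor, is known to recruit SIRT7 to promoters, which is why this motif was searched. The GC box, GGGCGG, was found in 57.9% against 60.0%, and the TATA box, TATAAA, in 5.8% against 7.9%. Over all 32851 promoters, including those of genes not measured in liver, these shares were 8.9%, 35.7% and 13.6%. The promoters of Zfp467 (chr6:48445041-48445340, minus strand) and Zfp91 (chr19:12796074-12796373, minus strand) are shown because both genes had an unadjusted p under 0.05. Zfp397 and Zfp524 had such a p as well, but no promoter was given for Zfp524 and that of Zfp397 was not examined singly. Capitals mark the 1 GC box of Zfp467 and the 1 ETS core of Zfp91.
Zfp467: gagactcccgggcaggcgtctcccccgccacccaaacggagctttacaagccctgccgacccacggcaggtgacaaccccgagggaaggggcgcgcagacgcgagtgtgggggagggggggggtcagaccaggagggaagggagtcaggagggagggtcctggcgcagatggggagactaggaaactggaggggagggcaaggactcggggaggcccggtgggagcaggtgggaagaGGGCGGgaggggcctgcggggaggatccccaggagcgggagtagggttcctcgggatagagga
Zfp91: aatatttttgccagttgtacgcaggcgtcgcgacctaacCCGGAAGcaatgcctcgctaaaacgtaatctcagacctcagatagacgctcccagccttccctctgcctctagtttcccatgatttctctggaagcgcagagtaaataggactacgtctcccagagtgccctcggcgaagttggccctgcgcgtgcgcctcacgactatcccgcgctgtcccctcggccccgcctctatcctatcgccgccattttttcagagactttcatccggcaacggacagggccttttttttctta

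The livers were not alike in the overall level of the members. On the log2 scale, the deviations of the members from their own means averaged 0.125, -0.039 and 0.062 in WT livers 1 to 3 and -0.058, -0.079 and -0.010 in KO livers 1 to 3. On this scaled level WT livers 1 and 3 were above all KO livers and WT liver 2 was within their range. WT liver 1 held the highest value of the 6 for 35 members (29.4%), while it did so for 20% of all genes tested. In this liver 6.94% of the members' reads fell on retained-intron transcripts, against 4.50 to 5.79% in the other livers. It was also the highest over all genes, at 2.42% against 1.92 to 2.13%. Without WT liver 1 the median log2 fold change of the members was -0.02 in place of -0.08. The part of this liver's retained-intron reads in the members' values was not tested.

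**Figure D4:**
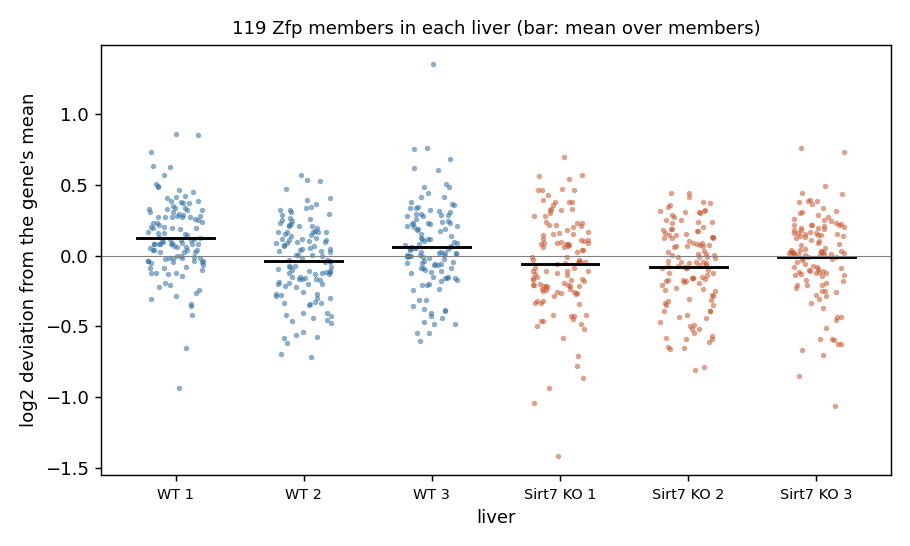
Log2 deviation of each of the 119 members from its own mean over the 6 livers (y axis), by liver (x axis), with WT in blue and Sirt7 KO in orange and a black bar at the mean over members. The bar of WT liver 1 is the highest, at 0.125, and that of WT liver 2 is at -0.039, between those of the KO livers.

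Transcripts within the members are given as a description, since those named were chosen after their values were seen. Of 642 annotated transcripts of the members, 249 averaged at least 10 reads. The share of the gene's reads was above WT in every KO liver for 10 of them (4.02%) and below WT in every KO liver for 15 (6.02%). Over the 21302 transcripts with as many reads, in all genes with at least 50 reads, these shares were 3.98% and 4.29%. Zfp706 showed such a pair while its total was level. Its 517-base transcript (ENSMUST00000226453.1) held 292, 295 and 310 reads in WT livers and 172, 158 and 176 in KO livers. Its 447-base transcript (ENSMUST00000226671.1) held 0 reads in each WT liver and 45.7, 22.1 and 35.0 in KO livers. The main transcript of 4417 bases overlapped between the genotypes, with 801, 773 and 1030 against 887, 724 and 721 reads.

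**Figure D5:**
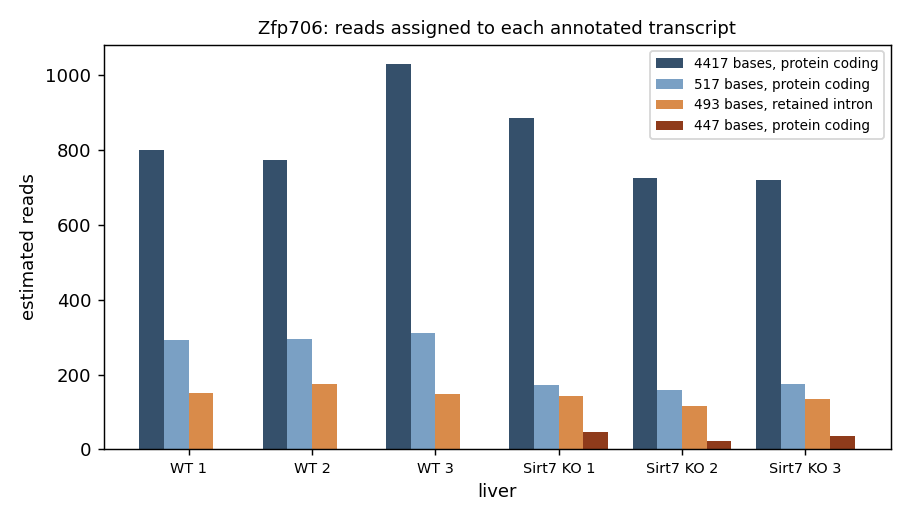
Estimated reads (y axis, from 0) assigned to the 4 transcripts of Zfp706 with at least 10 reads on average, in each liver (x axis). The 517-base bars are 292 to 310 in WT livers and 158 to 176 in Sirt7 KO livers, and the 447-base bars appear only in the KO livers.

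Zfp637 and Zfp644 also differed in the transcripts to which reads were assigned. The 1231-base transcript of Zfp637 took 10.9, 13.9 and 26.6% of its reads in WT livers and 0% in each KO liver, but it held at most 90.7 reads. The 5689-base transcript of Zfp644 took 43.2, 66.5 and 39.6% in WT livers and 0, 26.7 and 0% in KO livers. For Zfp809, the transcript marked for nonsense-mediated decay took 1.76, 7.42 and 7.58% in WT livers and 19.9, 14.1 and 14.9% in KO livers. These shares are estimates from short reads over transcripts that overlap, with few reads each, and no test of them was made.

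Some members moved, in both directions, when the average transcript length entered the comparison as an offset. In edgeR 6 members were then lower and 2 higher at an unadjusted p under 0.05, and 0 passed the adjusted test. The share of all genes at this p in that fit is not given here, so these counts have no background. Zfp236, Zfp87 and Zfp110 were among the lower, with log2 fold changes that went from -0.24 to -1.21, from -0.40 to -0.96 and from -0.19 to -0.57. Zfp950, a KRAB protein with 17 fingers, had a log2 fold change of -0.18 from reads (SE 0.26) and of 1.41 with the offset in DESeq2 (adjusted p = 0.0151). Its reads gave 10.3, 11.3 and 12.4 scaled CPM in WT livers and 11.8, 6.46 and 11.8 in KO livers. Its TPM was 5.87, 7.04 and 6.67 in WT livers and 12.1, 27.9 and 12.2 in KO livers. In KO liver 2, which had the highest TPM, 2.3 reads were assigned to a transcript of 192 bases, which held 0 reads in the other livers.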

How the data were processed

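Total RNA of liver was reverse transcribed with SMART-seq HT, a kit that does not mark strand, and sequenced. Per the labels and the study's methods, the authors trimmed reads with Trim Galore 0.6.5 and quantified them on the GRCm38 transcriptome with Salmon 1.2.1. The annotation release is not given in the sources used here. The authors deposited, for each liver, an estimated count of reads and the TPM of each transcript, neither pooled nor filtered.

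Here estimated counts were summed to the genes of GENCODE M21 and rounded. Of 140992 transcripts 139172 matched by version, 619 by identifier, and 1201 had no gene and were left out. The comparison used edgeR 4.0.16 in R 4.3.3 (TMM, filterByExpr with a minimum count of 10, quasi-likelihood test) on all 12524 genes that passed, and p-values were adjusted over these (Benjamini-Hochberg), with 0.05 as the threshold. DESeq2 1.42.0, other scalings and filters, offsets for length and GC content (loess span 0.3), a replicate block and leaving out each liver were the alternatives. The biological coefficient of variation was 26.4%, and livers of a genotype differed by at least 16.9 in chi-square per gene, so each counted as 1 sample. Deviations per liver used log2(scaled CPM + 0.5).

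The members, the gene lists and the tests were chosen with earlier results of these data known. Named were the members with an unadjusted p under 0.05, the 10 with the highest TPM, those with the smallest p in each role list, and those next to the minimum of 50 reads. Genes of the corepressor machinery and members outside this rule were named after their values were seen. Proteins were translated from the GENCODE M21 coding sequences, in place of a RefSeq protein table, and searched for the C2H2 and KRAB-A motifs with Python 3.11.15. Tests were checked on simulated data. Depth covers counting error only, since no molecular identifiers are named.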

Additional observations from a re-analysis of the deposited data

How the results depend on the processing

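Across 16 other fits, the 4 members with an unadjusted p under 0.05 were below 0 in each. Their unadjusted p was under 0.05 in 14 fits for Zfp467 and Zfp397, 12 for Zfp91 and 7 for Zfp524. Of 28 named members 1, Zfp91, changed its call and 10 changed sign in at least 1 fit without reaching an unadjusted p of 0.05. With total-count scaling, which moved the median of all genes to -0.114, 10 members were lower, their median was -0.193, 2 genes in all had an adjusted p under 0.05, and 520 genes were higher and 993 lower at an unadjusted p under 0.05. With no filter on low counts 7 members were lower, 1 member (Zfp91, adjusted p = 0.0405) and 633 genes passed the adjusted test, and 1391 genes were higher and 971 lower. DESeq2 called 258 genes. With length offsets 6 members were lower, 2 were higher and 2 genes were called in edgeR, and in DESeq2 6 members were lower, 2 were higher, 1 member (Zfp950) and 265 genes were called. Leaving out each liver in turn gave 3 to 7 members lower, 0 to 2 higher and 0 to 1 called, a median of -0.116 to -0.020, 0 to 252 genes called, and 579 to 1159 genes higher and 415 to 1049 lower. The single member called in these was Zfp91 without KO liver 1 (adjusted p = 0.0394), and 252 genes were called without this liver. With a minimum of 20 reads 2 of 208 members were higher, and the 4 lower members of the main set remained among the 208. With a minimum of 200 reads 1 of 26 was lower and 0 were higher, with a median of -0.011. Over all genes in the main fit 4.78% were lower and 6.54% higher. The replicate block gave 41 genes called, 6 members lower and a median of -0.082. For the DESeq2, length-offset and replicate-block fits, unadjusted counts over all genes are not given, so these members' counts have no background beside them. Same-numbered livers did not deviate together (correlations 0.065, 0.073 and -0.047), so the numbers were not taken to pair the mice. The causes of these shifts were not tested. Members near 50 reads rest on few reads per liver, and the part of depth in their spread was not tested.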
